A study of Mus musculus with 10 samples.

Results

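Cadherins and protocadherins were followed in brain RNA from the inbred strain C57BL/6 at 8 weeks, when mice are adult, and at 1 week, in the suckling period. The array read 46 such genes with 57 probe sets, out of 12393 genes with 20380 probe sets of a single symbol. A probe set, which is a group of short oligonucleotides for a transcript, was taken when its annotation gave a single symbol that begins with Pcdh, or with Cdh and a digit. Cdh5, the cadherin of endothelium, was left out by that rule, and 6 probe sets that name several alpha protocadherins at once are described apart. Samples were hybridised to 10 Affymetrix MOE430A arrays, 2 labelled female and 2 labelled male at 8 weeks, and 3 labelled female and 3 labelled male at 1 week. The labels give no genotype, treatment or dissection beyond the strain and brain. They number the brains but do not say that each came from its own animal, so the p-values measure the spread between these samples, which may be technical.

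Classical cadherins are calcium-dependent adhesion molecules whose outer domains bind cadherins on the neighbouring cell and whose tails hold catenins, which connect to actin. In brain they sort nuclei, layers and synaptic partners. Protocadherins are a larger branch that lacks the catenin-binding tail. The clustered alpha, beta and gamma protocadherins are chosen in different mixtures by single neurons and serve in self-recognition of neurites, while the non-clustered ones act in axon growth, cell movement and synapse turnover.

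Promoter sequence was available from RefSeq (GRCm38.p6) for 14 of the 46 genes, and 4 are shown because the largest fall, a further pair of falls without overlap and the single rise of the family are among them. Each run is the 250 bases before the gene's start, read 5′ to 3′ on the minus strand of the genome, with motif matches in capitals. Pcdh18 lies at chr3:49757317-49757566, Cdh8 at chr8:99416472-99416721, Pcdh8 at chr14:79771313-79771562 and Cdh22 at chr2:165234738-165234987.
Pcdh18: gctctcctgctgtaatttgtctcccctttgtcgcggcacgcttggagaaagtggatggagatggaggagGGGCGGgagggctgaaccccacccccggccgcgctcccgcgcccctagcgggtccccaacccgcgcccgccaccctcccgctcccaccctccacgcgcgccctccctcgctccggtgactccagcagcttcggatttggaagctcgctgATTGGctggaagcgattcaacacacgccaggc
Cdh8: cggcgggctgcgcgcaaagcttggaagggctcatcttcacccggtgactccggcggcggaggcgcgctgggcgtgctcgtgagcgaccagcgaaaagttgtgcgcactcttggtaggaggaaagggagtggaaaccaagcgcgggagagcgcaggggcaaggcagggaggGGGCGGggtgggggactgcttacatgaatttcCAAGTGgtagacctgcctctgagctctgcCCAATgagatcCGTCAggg
Pcdh8: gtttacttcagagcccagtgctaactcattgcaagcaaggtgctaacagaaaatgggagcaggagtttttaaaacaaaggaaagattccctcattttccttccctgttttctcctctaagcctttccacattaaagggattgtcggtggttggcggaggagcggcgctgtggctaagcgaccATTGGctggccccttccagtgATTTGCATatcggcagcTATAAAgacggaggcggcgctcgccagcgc
Cdh22: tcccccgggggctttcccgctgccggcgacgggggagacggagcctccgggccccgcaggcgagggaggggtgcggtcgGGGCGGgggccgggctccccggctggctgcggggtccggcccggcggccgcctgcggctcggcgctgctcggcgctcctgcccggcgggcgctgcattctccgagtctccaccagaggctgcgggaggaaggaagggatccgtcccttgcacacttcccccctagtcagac
Both strands were searched for 6 motifs. The E-box was written as CANNTG and the GC box, which Sp factors bind, as GGGCGG. The CCAAT box was searched as the letters of its name, the TATA box as TATAAA, and the octamer of POU factors as ATGCAAAT. The inner part of a cAMP response element was written as TGACG. The Pcdh18 window held 1 GC box and 1 CCAAT match, and 68.0% of its bases were G or C with 23 CpG. The Cdh8 window held 1 E-box, 1 GC box, 1 CCAAT match and 1 TGACG match, with 64.4% G or C. That of Pcdh8 had another composition, with 51.2% G or C and 1 match each to the CCAAT box, the TATA box and the octamer. In the Cdh22 window 77.6% of bases were G or C, with 30 CpG and 1 GC box. Among all 32851 windows of this length the median G or C share was 52.4% with a median of 6 CpG. Matches occurred in 66.2% of all windows for the E-box, 32.7% for the GC box, 33.8% for the CCAAT box, 12.4% for the TATA box, 1.60% for the octamer and 17.8% for TGACG. Matches to different motifs did not overlap in the 4 windows shown. No match says only that the letters are not in this window, and a match is no evidence of binding.

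Most members that could be tested were lower or did not pass at 8 weeks, and a single one was higher. Of the 57 probe sets, 23 of 22 genes passed the filter on dim values, and 34 did not. Among the 23, 11 fell, 1 rose and 11 did not pass limma's test at an adjusted p under 0.05. The share lower was 47.8%, against 24.0% of all 13576 probe sets tested, and the share higher 4.35%, against 22.0%. The median log2 change was -0.26 for the 23 and -0.015 for all probe sets tested. With each gene given by its brightest probe set, 10 of 22 genes fell and 1 rose, where 24.0% and 21.9% of 8148 genes did. In 8 of the 23, all lower at 8 weeks, the arrays of both ages did not overlap, a share of 34.8% beside 35.4% of all probe sets tested in either direction and 18.3% lower. By gene, 7 of 22 did not overlap, or 31.8%, beside 35.9% of all genes in either direction and 18.4% lower. Counts over members that passed the filter leave out genes read too dimly, so they do not describe the whole family.

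The scale between arrays bears on every direction given here. Deposited brightness differed up to 2.3 times between arrays, and quantile normalization set them to a common distribution. The median change over all those tested was 0.47 on the deposited scale and 0.27 with spike-in scaling. The 11 members that fell lay below that median under each of the 5 scalings, by 0.29 to 1.14 on the deposited scale. They were picked by the main fit, and scaling moves all probe sets of an array by about the same factor. Their place below the median was thus largely set beforehand and is no independent support. On the deposited scale only 7 of them were below 0 and 2 passed the test. Falls and rises below are therefore relative to the bulk of the transcripts on an array.

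The sex labels at 1 week limit what the labelled groups can show. Transcripts of the X and Y chromosomes went against the label in 4 of the 6 arrays at 1 week, replicates 1 and 2 labelled female and replicates 2 and 3 labelled male, and replicate 3 labelled female carried both kinds. When only age was modelled and those 4 arrays were dropped, 6 of 22 members tested were lower and 0 higher. Of all 13576 probe sets tested, that fit called 1974 lower and 2072 higher. At 1 week it kept only replicate 3 labelled female and replicate 1 labelled male. Where it lost a call, the smaller number of arrays and the choice of arrays cannot be told apart. Leaving out replicate 3 labelled female too left 1 array at 1 week, whose spread is taken to be like that of the others. The median change in that fit was -0.30 for the 23 members tested and -0.0093 for all probe sets tested. Cdh4, Cdh6, Cdh8, Cdh13 and Pcdh18 fell in both fits, whereas the first Cdh2 probe set passed in the one (adjusted p = 0.0177) and not in the other (0.0555).

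Markers of several cell types changed with age alongside the cadherins. Of 4 progenitor genes tested 3 fell, and the summed level of the 5 listed was 266 to 382 at 8 weeks and 844 to 1427 at 1 week, with 3 of 6 meningeal and fibroblast genes also lower and their sum at 843 to 1150 and 1855 to 9304. All 4 myelin genes tested rose, and the sum of that list ran from 8026 to 10998 at 8 weeks and from 994 to 4746 at 1 week. Of 6 neuronal genes 3 rose and 1 fell, and their sum ran from 12663 to 13055 at 8 weeks and from 9354 to 10532 at 1 week. Mki67 and Mog, which belong to the progenitor and myelin lists, were below the filter. Of 4 oligodendrocyte precursor genes 3 fell, and their sum was 699 to 874 at 8 weeks and 1140.5 to 1548 at 1 week. Of 5 astrocyte genes 2 rose, with a sum of 8597 to 10129 at 8 weeks and 4464 to 6402 at 1 week. Much of that sum was Aldoc, with means of 5681 and 1968, and Aqp4, Gja1 and Slc1a3 did not pass. All 6 of these sums were apart between the ages, but a sum follows its brightest genes. In the meningeal list the falls were those of collagen genes, and Dcn, Lum and Ogn did not pass. Over all genes tested 24.0% were lower and 21.9% higher. The 3 microglial genes tested rose, with overlapping sums of 1711 to 2401 at 8 weeks and 1389 to 1714 at 1 week. For each of these lists the part in the cadherin changes was not tested. In whole tissue, fewer cells of a type and less RNA per cell cannot be told apart.

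The type I classical cadherins were led by a fall of Cdh4, the retinal cadherin. Levels below are normalized intensities, given at 8 weeks for the arrays labelled female and then those labelled male, and at 1 week as the lowest, median and highest of 6 arrays. Cdh4 read 102, 82.3, 73.7 and 81.8 at 8 weeks, against 157, 176 and 221 at 1 week. Every array at 8 weeks was below every array at 1 week, and the log2 change was -0.92 ± 0.10 (SE, limma, adjusted p = 6.95e-05). The other Cdh4 probe set read near 2 at both ages and gave no information. Cdh2, the neural cadherin of progenitors and synapses, read 651, 624, 574 and 496 at 8 weeks, against 756, 857 and 997 at 1 week. Its 8-week arrays all lay below those at 1 week, with a change of -0.55 ± 0.09 (limma, adjusted p = 0.000558). A second Cdh2 probe set read 354, 326, 329.9 and 344 at 8 weeks, against 397, 433 and 480.4 at 1 week, also without overlap. Its change of -0.35 ± 0.08 (limma, adjusted p = 0.00412) had the same direction, but on the deposited scale the probe sets changed by 0.0067 and 0.18. Without the 4 arrays whose sex transcripts oppose their label the second probe set did not pass (adjusted p = 0.0794).

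Cdh15, the muscle cadherin, which cerebellar granule cells also make, went the other way without passing. It read 91.1, 91.6, 63.2 and 187 at 8 weeks, against 39.9, 66.1 and 74.7 at 1 week. The change was 0.54 ± 0.22 (limma, adjusted p = 0.0639), and the array labelled male replicate 1 at 8 weeks sat among those at 1 week. Without that array the change was 0.86 with an adjusted p of 0.00116. Without replicate 2 labelled male at 8 weeks, which held the highest value, Cdh15 did not pass the filter and had no test, and without replicate 2 labelled female at 1 week the change was 0.45 (adjusted p = 0.127). Cdh1 and Cdh3, the epithelial and placental cadherins, were below the filter, Cdh1 at 27.1 ± 4.41 at 8 weeks and 25.9 ± 6.42 at 1 week (SD, n = 4 and 6). Cdh3 was at 35.3 ± 16.5 and 37.5 ± 16.0.

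All 7 type II classical cadherins on the array passed the filter, and 4 fell, 1 rose and 2 did not pass. The shares of 57.1% lower and 14.3% higher stood beside 24.0% and 22.0% of all probe sets tested. Cdh8, a cadherin of excitatory circuits in cortex and striatum, read 106, 139.8, 108 and 112 at 8 weeks, against 167, 193 and 218 at 1 week. The ages did not overlap, and the change was -0.63 ± 0.10 (limma, adjusted p = 0.000603). Cdh11, which mesenchyme and meninges make as well as neurons, read 319, 339.6, 391 and 239 at 8 weeks, against 442, 510.0 and 645 at 1 week. These ranges were also apart, with a change of -0.66 ± 0.13 (limma, adjusted p = 0.00192). It did not pass without the 4 arrays named above (adjusted p = 0.0526).

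Cdh6, known from developing kidney and from borders between brain regions, read 107, 106, 155 and 98.7 at 8 weeks, against 153, 182 and 259 at 1 week. A single 8-week array, labelled male replicate 1, reached the lower end of the 1-week range, and the change was -0.65 ± 0.13 (limma, adjusted p = 0.00229). Cdh10 read 252, 265, 306 and 236 at 8 weeks, against 285, 326 and 422 at 1 week. It overlapped between ages and changed by -0.34 ± 0.10 (limma, adjusted p = 0.0177), a call lost without replicate 1 labelled female at 8 weeks (adjusted p = 0.0581), without replicate 2 labelled male at 8 weeks (0.0813) and without the 4 arrays (0.139). Cdh9, which takes part in synapse specificity of hippocampal and retinal neurons, read 149.8, 103, 145 and 98.9 at 8 weeks, against 115, 154 and 182 at 1 week. Its change of -0.26 ± 0.14 did not pass (limma, adjusted p = 0.157).

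Cdh22 and Cdh20 were the type II cadherins with higher means at 8 weeks. Cdh22, first described from pituitary and brain, read 344, 339, 284 and 416 at 8 weeks, against 179.5, 237 and 335 at 1 week. Its change of 0.47 ± 0.15 passed (limma, adjusted p = 0.0274), with overlap through the lowest 8-week array and the highest at 1 week. The call was lost on leaving out any of 5 single arrays, with adjusted p of 0.0508 without replicate 3 labelled male and 0.0518 without replicate 2 labelled female at 1 week. At 8 weeks it was 0.0717 without replicate 1 and 0.0671 without replicate 2 labelled female, and 0.120 without replicate 2 labelled male. Without the 4 arrays named above the change was 0.25 (adjusted p = 0.323). Cdh20 read 108, 140.2, 161 and 119.9 at 8 weeks, against 75.1, 111 and 128 at 1 week, and its change of 0.25 ± 0.14 did not pass (limma, adjusted p = 0.154).

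**Figure D1:**
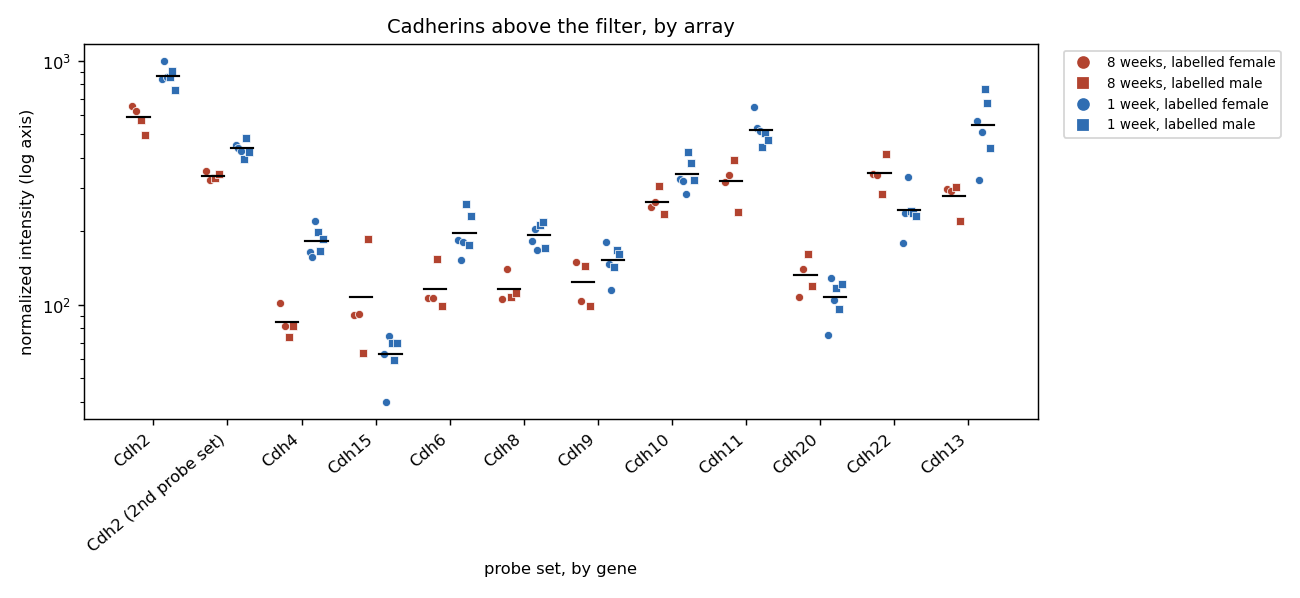
Normalized intensity (log axis) of the cadherin probe sets that passed the filter, by gene, with 1 point per array, circles for arrays labelled female, squares for those labelled male, and a line at the mean. The 8-week points of Cdh2, Cdh4, Cdh8, Cdh11 and Cdh13 lie below all 1-week points, while those of Cdh22 and Cdh15 lie mostly above.

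Cdh13, or T-cadherin, lacks a tail inside the cell and is held in the membrane by a lipid anchor. It read 298, 292, 304 and 221 at 8 weeks, against 325, 538 and 769 at 1 week. The ages did not overlap, although the 1-week arrays spread widely, and the change was -0.87 ± 0.19 (limma, adjusted p = 0.00348). A second probe set, below the filter, averaged 22.0 ± 3.87 at 8 weeks and 54.6 ± 18.4 at 1 week (SD, n = 4 and 6), again without overlap. The remaining one read 2.99 ± 0.928 and 2.53 ± 0.564, near the low end of the scale, with overlap.

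Cdh16 and Cdh17, the cadherins of kidney and intestine, and Cdh23, the cadherin of the hair cell tip link, were below the filter. Cdh16 averaged 23.4 ± 19.5 at 8 weeks and 25.8 ± 24.5 at 1 week, and Cdh17 6.82 ± 3.06 and 6.96 ± 0.794. The brighter Cdh23 probe set ran from 48.9 to 66.9 at 8 weeks and from 32.6 to 58.7 at 1 week, with overlap. Pcdh15, its partner in the tip link, averaged 44.2 ± 9.97 and 50.7 ± 12.7. None of these genes of other organs stood apart between the ages.

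Among the non-clustered protocadherins, Pcdh18 had the largest fall of all 23 members tested. Pcdh18, which binds the Reelin pathway adaptor Dab1, read 103, 102, 124 and 68.2 at 8 weeks, against 227, 238 and 269.5 at 1 week. The ages lay far apart, and the change of -1.13 ± 0.12 (limma, adjusted p = 5.14e-05) was the 1 member change past 2-fold, where 6.21% of all probe sets tested passed both criteria in either direction. A second probe set below the filter averaged 15.6 ± 5.35 at 8 weeks and 50.9 ± 6.07 at 1 week, without overlap. The remaining one read 2.18 ± 0.167 and 3.02 ± 0.709, also without overlap but near the low end of the scale.

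Pcdh8, also called arcadlin, is induced by neuronal activity and takes N-cadherin off the synaptic surface. It read 387, 271, 289.9 and 160.3 at 8 weeks, against 408, 448 and 571 at 1 week. The 8-week arrays differed more than 2-fold among themselves and still lay below all 1-week arrays, with a change of -0.76 ± 0.17 (limma, adjusted p = 0.00427). It did not pass without the 4 arrays named above (change of -0.81, adjusted p = 0.0712).

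Pcdh10, which serves axon growth in the forebrain and activity-dependent synapse loss, did not pass. It read 245, 202, 253 and 162 at 8 weeks, against 177, 209 and 266 at 1 week, with a change of -0.02 ± 0.14 (limma, adjusted p = 0.932), and its sign depended on the scaling. Pcdh20 read 306, 344, 331 and 228 at 8 weeks, against 164, 229 and 287 at 1 week. Its change of 0.35 ± 0.15 did not pass (limma, adjusted p = 0.0718), but did without replicate 1 labelled female at 1 week (0.44, adjusted p = 0.0205) or replicate 2 labelled male at 8 weeks (0.48, adjusted p = 0.0344). Pcdh1, Pcdh7 and Pcdh12 were below the filter. Pcdh1 averaged 42.5 ± 3.02 at 8 weeks and 54.4 ± 3.99 at 1 week without overlap, and the brighter Pcdh7 probe set 73.0 ± 28.7 and 76.9 ± 15.7. Pcdh12, a protocadherin of vessels, averaged 3.91 ± 0.494 and 5.79 ± 1.27.

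**Figure D2:**
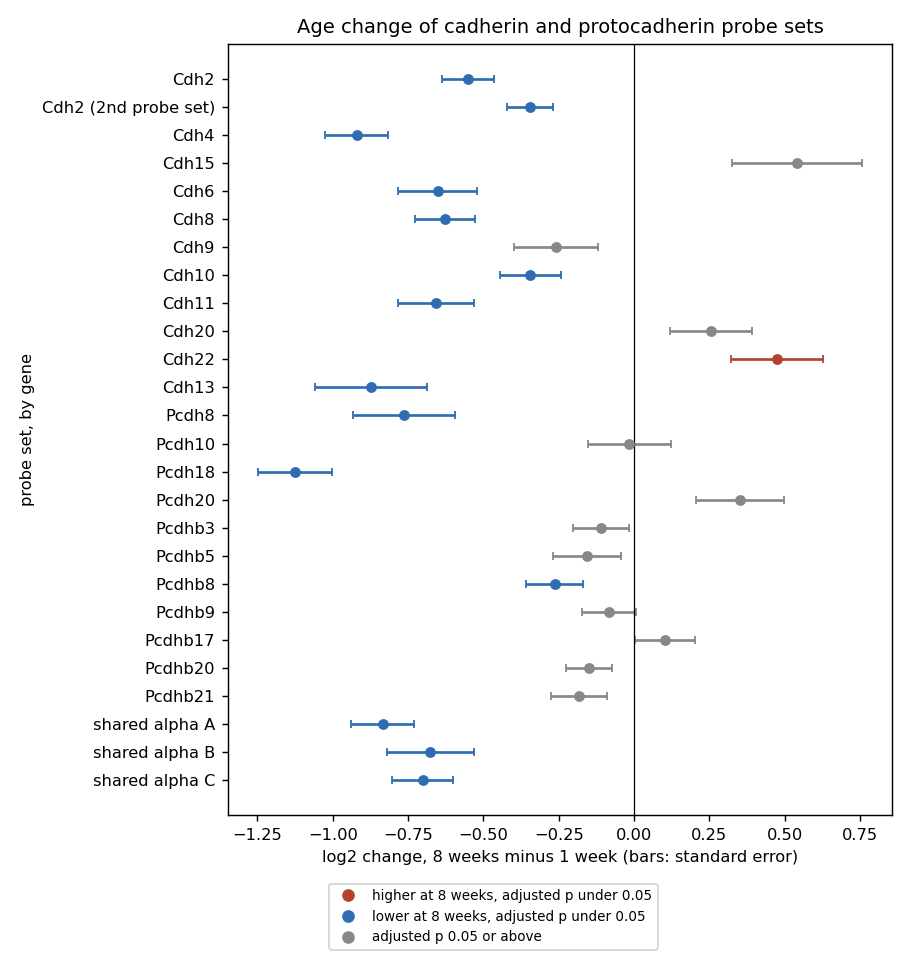
Log2 change at 8 weeks minus 1 week with its standard error for the 23 members that passed the filter and the 3 shared alpha probe sets that did, red for higher and blue for lower at an adjusted p under 0.05 and grey for the rest. Pcdh18 stands farthest to the left at -1.13, Cdh22 is the only red point at 0.47, and the beta genes lie close to 0.

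Most beta protocadherins were too dim to test, and those tested changed little. Their cluster lies on chromosome 18, and all 22 genes, Pcdhb1 to Pcdhb22, were on the array with 23 probe sets, of which 7 passed the filter. Among these 7, 1 fell and 6 did not pass, with a median change of -0.15 and a range from -0.26 to 0.10. That count, 14.3%, stood beside 24.0% of all probe sets tested. Of the 15 other member genes tested 9 fell, and the difference between these groups was not tested. Beta genes resemble each other closely in sequence, and whether a probe set also reads a neighbouring gene was not tested.

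The single call was Pcdhb8, which read 86.8, 81.8, 71.5 and 62.8 at 8 weeks, against 68.6, 105 and 122 at 1 week. Its change of -0.26 ± 0.09 (limma, adjusted p = 0.0426) came from 0.09 in the arrays labelled female and -0.61 in those labelled male. With age alone in the model the adjusted p was 0.150, and 8 of the 10 fits that left out a single array did not give the call. The fits without replicate 1 and without replicate 3 labelled female at 1 week were the ones that did.

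None of the other beta genes tested passed. Pcdhb17 averaged 141 ± 8.11 at 8 weeks and 130.2 ± 19.7 at 1 week, with a change of 0.10 ± 0.10 (limma, adjusted p = 0.438). Pcdhb9 averaged 119 ± 9.74 and 128 ± 15.5, with -0.08 ± 0.09 (limma, adjusted p = 0.486), and Pcdhb21 104 ± 10.2 and 122 ± 12.2, with -0.18 ± 0.09 (limma, adjusted p = 0.133). For Pcdhb3, Pcdhb5 and Pcdhb20 the changes were -0.11, -0.16 and -0.15, with adjusted p of 0.361, 0.283 and 0.140. Standard errors in the 7 beta genes ran from 0.08 to 0.11.

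The other 15 beta genes, Pcdhb1, Pcdhb2, Pcdhb4, Pcdhb6, Pcdhb7, Pcdhb10 to Pcdhb16, Pcdhb18, Pcdhb19 and Pcdhb22, were below the filter. Of these, Pcdhb7 alone was apart between ages, at 61.1, 63.4, 58.6 and 52.3 at 8 weeks, against 64.5, 79.3 and 95.4 at 1 week. Over all members below the filter, 5 of 34 probe sets did not overlap, all lower at 8 weeks, where 9.46% of 9050 such probe sets did not overlap and 4.33% were lower. They belonged to Cdh13, Pcdh1, Pcdh18 with 2, and Pcdhb7.

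**Figure D3:**
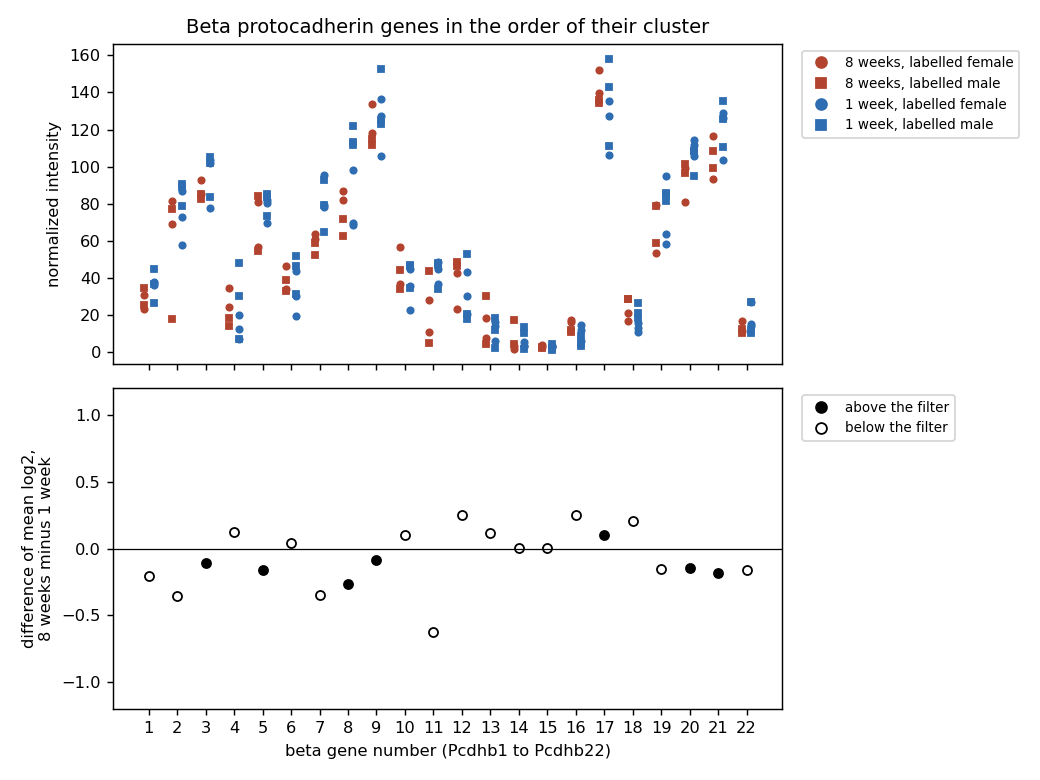
Normalized intensity per array (upper panel) and the difference of mean log2 values, 8 weeks minus 1 week (lower panel), for the 22 beta protocadherin genes by gene number, which is their order along the cluster, with filled points for the 7 genes above the filter. The highest level in any array is 158, and the differences of the 7 filled points run from -0.26 to 0.10.

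The alpha protocadherins were seen only through probe sets that name several of them, since their transcripts share 3′ exons. Of 6 such probe sets, 3 with 14 symbols each passed the filter and fell without overlap. The first, A in the plot of age changes, read 668, 761, 750.3 and 787 at 8 weeks, against 1178, 1299 and 1689.9 at 1 week, a change of -0.83 ± 0.10 (limma, adjusted p = 0.000126). The next, B, read 401, 438, 445 and 445 at 8 weeks, against 483, 741 and 881 at 1 week, with -0.68 ± 0.14 (limma, adjusted p = 0.00334). Its 8-week arrays lay close together and those at 1 week were widely spread, and it did not pass without the 4 arrays named above (adjusted p = 0.0738). The last, C, read 129, 135, 128 and 134 at 8 weeks, against 169.8, 225 and 299 at 1 week, with -0.70 ± 0.10 (limma, adjusted p = 0.000327). These 3 share their targets and are no independent measures of the cluster, and they cannot say which alpha isoform changed. The remaining 3, with 9 symbols each, were below the filter, and 1 of them did not overlap, at 30.2 ± 7.14 at 8 weeks and 51.1 ± 9.21 at 1 week.

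The fit could not settle whether members differed by sex label. Male minus female at 8 weeks passed in 0 members and in 0.0% of all 13576 probe sets tested with limma, and 0 members were under an unadjusted p of 0.05, beside 345 probe sets in all, or 2.54%. For the interaction, 0 members and 0.0% of all passed, and 1 member, Pcdhb8, was under an unadjusted p of 0.05, beside 759 in all, or 5.59%. Both contrasts rest on 2 arrays per label at 8 weeks and on a spread that includes the labels at 1 week which the sex transcripts contradict. Xist, the RNA of the silenced X chromosome, was not called either, although its 8-week levels were 130.7 and 134 for the male label and 1676 and 1405 for the female label. The absence of calls therefore says nothing about the members. With the 8-week arrays alone 2 of 13576 probe sets passed, and 0 of 22 members. Of the 11 members that fell, 10 were lower within both labels, the other being Pcdhb8.

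Cerebellar markers varied widely between arrays of the same age, and some cadherins stood at the extremes in the same arrays. The sum of 6 granule and Purkinje cell genes (Gabra6, Cbln3, Pcp2, Calb1, Zic1 and Pvalb) was 9889 and 10120 in the arrays labelled female and 4724 and 15600 in those labelled male at 8 weeks. At 1 week it ran from 1535 to 5078, and 4 of the 6 genes rose with age. Cdh22 and Cdh15 were both highest in replicate 2 labelled male at 8 weeks, with the highest sum, and at that age lowest in replicate 1 labelled male, with the lowest. Cdh13 and Pcdh8 ran the other way, lowest at 8 weeks in replicate 2 labelled male and highest at 1 week in replicate 1 labelled male, whose sum was 1535. Most of the sum in that 1-week array was Calb1 at 740 and Zic1 at 598, while Gabra6 read 12.4 and Cbln3 60.2. The order did not hold throughout. At 8 weeks Pcdh8 was highest in replicate 1 labelled female, at 387 with a sum of 9889, and at 1 week the array with the lowest sum had Cdh22 at 242 and Cdh15 at 70.0, both above their medians of 237 and 66.1. The first Cdh2 probe set, Cdh6, Cdh9, Cdh10, Cdh11, Pcdh10, Pcdh18, Pcdh20, Pcdhb5 and Pcdhb8 were also lowest at 8 weeks in replicate 2 labelled male. These 4 members, Cdh22, Cdh15, Cdh13 and Pcdh8, were picked after their values were seen, and the part of cerebellar cells in their age changes was not tested. The sum of 5 pituitary genes was highest in replicate 1 labelled female at 8 weeks, at 13463, and Cdh22, which pituitary also makes, read 344 there. Most of that sum was Gh at 8002 and Prl at 4909. At 8 weeks Cdh22 read 339 in replicate 2 labelled female, with a sum of 1258, and 416 in replicate 2 labelled male, with 1033. It did not follow that sum, and the part of pituitary was not tested.

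**Figure D4:**
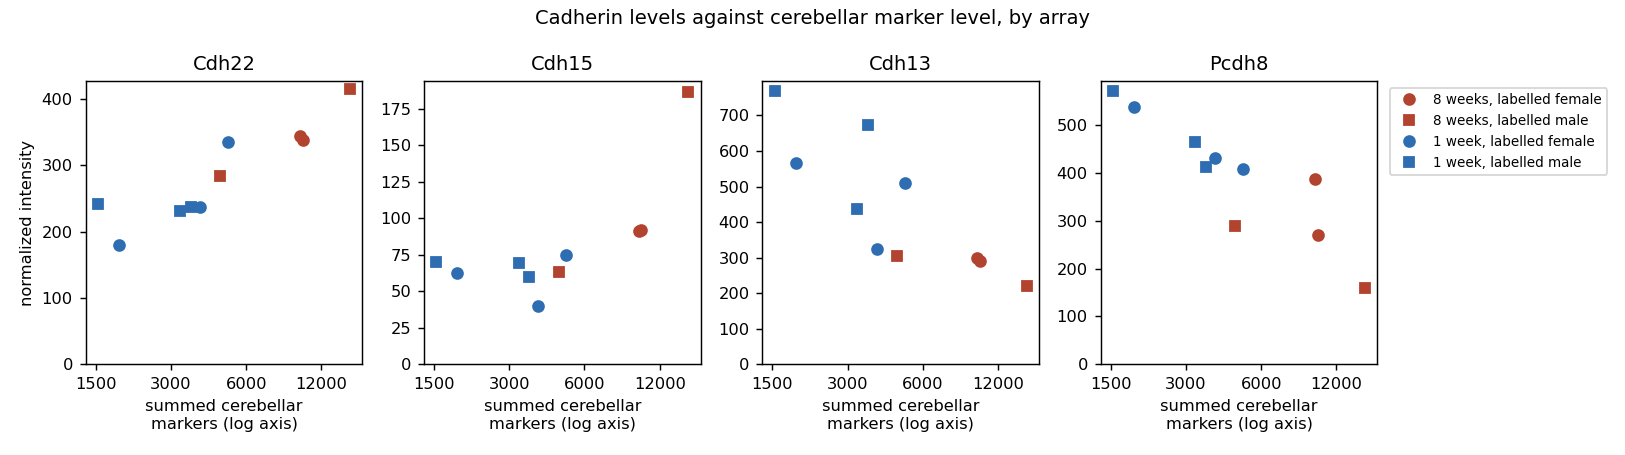
Normalized intensity of Cdh22, Cdh15, Cdh13 and Pcdh8 against the summed level of 6 cerebellar marker genes (log axis), with 1 point per array, red for 8 weeks and blue for 1 week. The 8-week array with the highest sum, 15600, has the highest Cdh22 and Cdh15 and the lowest Cdh13 and Pcdh8, but Pcdh8 at 8 weeks is highest at a sum of 9889 and not at the lowest, 4724.

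Genes that work with cadherins moved in both directions. Of 11 catenin and armadillo genes tested, 4 fell and 3 rose, with a median change of 0.0013, beside 24.0% lower and 21.9% higher over all genes. Ctnnb1, the beta-catenin that bridges cadherin tails to alpha-catenin, averaged 2476 ± 157 at 8 weeks and 2548 ± 121 at 1 week (SD, n = 4 and 6) and did not pass (limma, adjusted p = 0.679). Falls were those of Ctnnbip1, an inhibitor of beta-catenin in transcription (-1.37 ± 0.13), Arvcf (-0.83 ± 0.07), the neural alpha-catenin Ctnna2 (-0.69 ± 0.10) and the neural delta-catenin Ctnnd2 (-0.32 ± 0.10). Ctnna2 averaged 204 ± 27.1 at 8 weeks and 345 ± 43.0 at 1 week. Rises were those of Jup and Pkp3, both junction plaque genes (each 0.54), and Pkp4 (0.30 ± 0.07).

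Actin linkers and nectins showed falls and no rise, with 4 of 10 genes lower and a median change of -0.19. Nectin3, an adhesion receptor that assembles junctions together with cadherins, averaged 123 ± 12.0 at 8 weeks and 335 ± 32.0 at 1 week, a change of -1.29 ± 0.09 (limma, adjusted p = 2.49e-06). Vasp (-0.41 ± 0.08), Lima1 (-0.33 ± 0.11) and Tln1 (-0.29 ± 0.07) also fell. Protocadherin tails recruit the WAVE complex to remodel actin. In a list of genes of that complex, with the focal adhesion kinase gene Ptk2b and with Pdcd10, 4 of 9 rose (44.4%) and 0 fell. The median change in that list was 0.18, and its counts stand beside the same 21.9% higher and 24.0% lower over all genes. Cyfip2, a subunit of that complex, averaged 1305 ± 89.1 at 8 weeks and 639.9 ± 79.1 at 1 week (1.01 ± 0.10, limma, adjusted p = 3.36e-05). Ptk2b, a kinase that protocadherins can inhibit, changed by 1.09 ± 0.16, Nckap1 by 0.47 ± 0.11 and Abi1 by 0.26 ± 0.07.

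Factors tied to promoter choice and silencing of the clustered genes gave 4 falls (36.4%) and 0 rises among 11 genes, with a median of -0.086. Over all genes tested 24.0% were lower and 21.9% higher. Dnmt3a, a DNA methyltransferase, averaged 307 ± 31.5 at 8 weeks and 877 ± 34.6 at 1 week (-1.45 ± 0.08, limma, adjusted p = 8.19e-07). The histone methyltransferase genes Setdb1 (-0.46 ± 0.11) and Ehmt2 (-0.45 ± 0.08) and the partner of the last, Wiz (-0.49 ± 0.09), fell as well. Ctcf, which loops enhancers to the chosen promoter, changed by 0.20 and did not pass (limma, adjusted p = 0.0622). Dnmt3b, another methyltransferase gene of the list, was below the filter and had no test. It averaged 55.8 ± 10.6 at 8 weeks and 51.6 ± 16.6 at 1 week, with overlap.

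Among 12 genes of cadherin shedding and turnover, 3 fell and 2 rose, with a median of -0.21. The kinase gene Fyn (-0.86 ± 0.10) and the receptor phosphatase genes Ptprf (-0.63 ± 0.13) and Ptprk (-0.61 ± 0.12) fell, while the endocytic adaptor gene Numb (0.85 ± 0.08) and the phosphatase gene Ptprm (0.38 ± 0.10) rose. Of 7 other superfamily genes, Cdhr1, a cadherin of photoreceptors and of the olfactory bulb, fell by 0.88 on the log2 scale. The synaptic calsyntenins Clstn1 (0.33 ± 0.08) and Clstn3 (0.26 ± 0.07) rose, and 4 did not pass. That made 14.3% lower and 28.6% higher, again beside 24.0% and 21.9% over all genes tested. Endothelial Cdh5 averaged 71.0 ± 3.14 at 8 weeks and 109 ± 13.0 at 1 week (-0.48 ± 0.09, limma, adjusted p = 0.00158), and the summed level of 6 endothelial genes, Cdh5 included, ran from 971 to 1036 and from 1251 to 1538. Of these 6 genes 3 fell, Cdh5, Cldn5 and Kdr, while Tek, Pecam1 and Flt1 did not pass, so the sum does not describe the whole list.

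**Figure D5:**
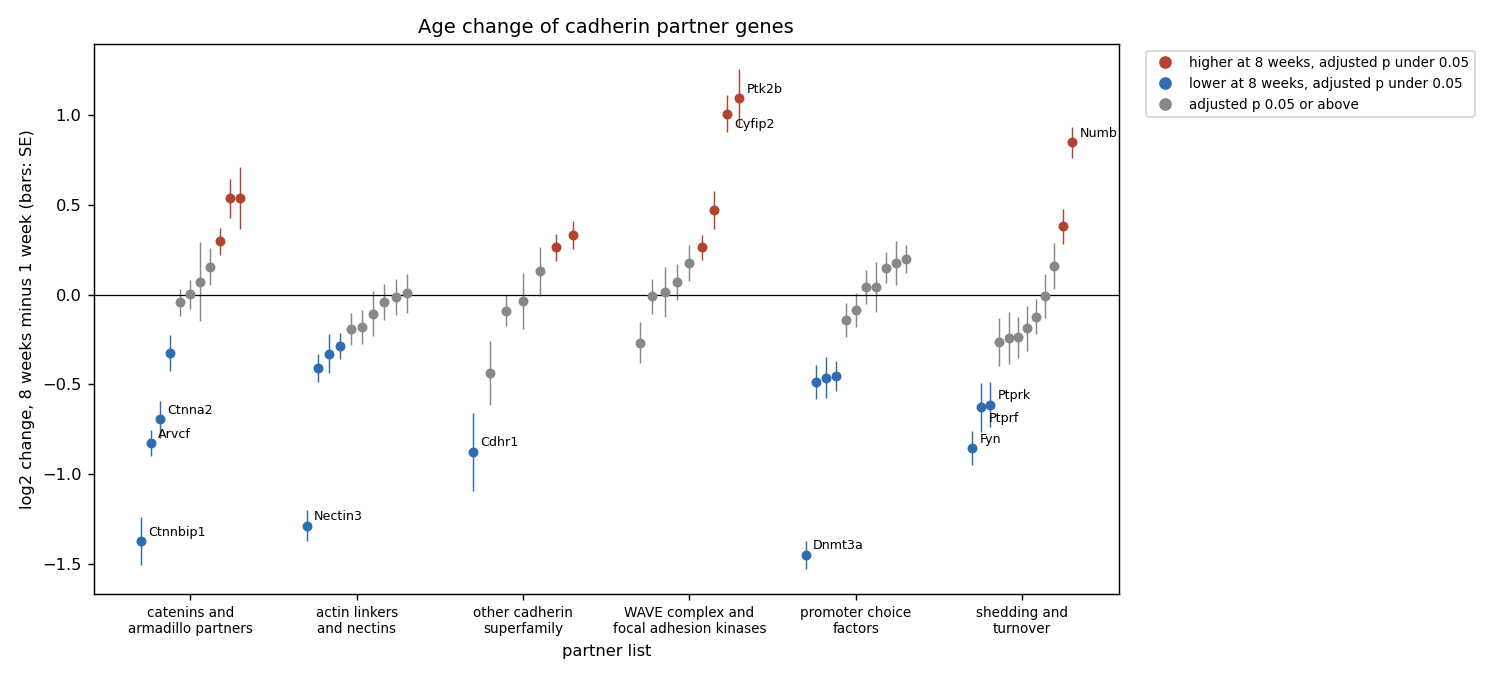
Log2 change at 8 weeks minus 1 week with its standard error for each tested gene of 6 partner lists, red for higher and blue for lower at an adjusted p under 0.05 and grey for the rest. Dnmt3a at -1.45, Ctnnbip1 at -1.37 and Nectin3 at -1.29 are the lowest points, and Ptk2b at 1.09 and Cyfip2 at 1.01 the highest.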

How the data were processed

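The deposited table holds 1 linear intensity per probe set and array. The software with which the authors summarised the probes is not given in the sources used here. Of 22690 probe sets, 64 controls were left out. Values were quantile-normalized, a pseudocount of 24 (the 20th percentile) was added and log2 was taken, so changes of dim genes are understated. A filter at the 40th percentile of mean log2 values kept 13576 probe sets for testing. The lowest mean log2 value kept equals an intensity of 73.9 once the pseudocount is taken off. A probe set low at a single age could fail it, as Mog did with means of 238 at 8 weeks and 36.4 at 1 week. limma 3.58.1 in R 4.3.3 fitted 1 coefficient per age and sex label. Contrasts were 8 weeks minus 1 week, male minus female at 8 weeks, and their interaction, with two-sided p-values adjusted by Benjamini-Hochberg over all probe sets tested (threshold 0.05). A gene was given by its brightest probe set. The number of arrays limits the precision.

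Members, lists and alternatives were chosen with earlier results of these data known, and hybridisation control scaling after the data were seen. Member genes were all named, with values by array for every tested classical cadherin and every change of at least 0.8, and up to 4 genes per direction and partner list. On simulated data 200 of 22626 probe sets were changed. The test for age called 40.3% of those with a log2 change of 0.5, 91% at 1 and 87.9% at 2. It also called 7 unchanged probe sets. In the data 46.0% of probe sets tested were called. The adjusted threshold was therefore stricter in the simulation, and its rates do not carry over to the data. Symbols came from GEO's platform annotation, and all 57 member probe sets matched RefSeq.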

Additional observations from a re-analysis of the deposited data

Results flagged for a closer look

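In 3 of 52 groups of values tested, 1 array lay apart from the others of its age by Dixon's test, which chance gives in about 1 in 20 groups. Cdh6 read 154.65 in replicate 1 labelled male at 8 weeks, and the other 3 arrays of that age lay between 98.74 and 106.78. Cdh13 read 220.97 in replicate 2 labelled male at 8 weeks, with the others between 291.77 and 304.29. An alpha protocadherin probe set shared by 14 symbols read 400.98 in replicate 1 labelled female at 8 weeks, with the others between 438.04 and 445.25.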

How the results depend on the processing

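The main counts were 2993 higher and 3253 lower among all probe sets and 1 and 11 among members. A 2-fold minimum gave 450 and 393, and 0 and 1. Values as deposited gave 8673 and 629, and 8 and 2. Spike-in scaling gave 5331 and 1055, and 5 and 6. Hybridisation control scaling gave 1175 lower, and 4 and 7. Age alone, without the 4 arrays against their sex label, gave 1974 lower, and 0 and 6. Without 5 arrays it gave 1973 and 1754, and 0 and 6. Members higher were 0 with no filter, 2 with age alone on all arrays and 3 with array weights, and members lower were 7 with a filter at the 60th percentile, where 10 were tested. Leaving out 1 array gave 0 to 2 members higher and 9 to 11 lower. The sex contrast called 1 probe set on deposited values and 2 on 8-week arrays alone, and the interaction 1 on deposited values, with 0 to 2 in each on leaving out 1 array.

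Changes turned sign on deposited values for both Cdh2 probe sets (0.0067 and 0.18), Cdh9 (0.19), Cdh10 (0.17), Pcdh10 (0.47), Pcdhb3 (0.31), Pcdhb8 (0.14), Pcdhb9 (0.36), Pcdhb20 (0.27) and Pcdhb21 (0.25). With spike-in scaling they did for Pcdh10 (0.27), Pcdhb3 (0.12), Pcdhb5 (0.051), Pcdhb9 (0.17), Pcdhb20 (0.088) and Pcdhb21 (0.060). With hybridisation control scaling they did for Pcdh10 (0.17), Pcdhb3 (0.037) and Pcdhb9 (0.079). Pcdh10 also turned with median scaling (0.0017), array weights (0.030) and in some fits that left out 1 array (range -0.16 to 0.13), and Pcdhb17 without 5 arrays (-0.15). With the replicate block 2847 were higher and 3054 lower, and 1 and 10 members. It took the call of Pcdhb8 and turned Pcdhb17 (-0.0020) and no other member. The numbers were not taken to pair the arrays, since nothing in the labels says that they do. Same-numbered deviations correlated from -0.0251 to 0.193, with a median of 0.098. Those with different numbers ran from -0.177 to 0.177, with a median of -0.0597, so a small shared part is not excluded. The scalings move the median of all probe sets, and the cause of the other changes was not tested. Dim members, 34 of 57, gave no test.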

Other observations

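With no filter on dim values, 14 of 57 member probe sets were lower and 0 higher, beside 3451 and 3318 of all 22626. Among those below the filter, the second Pcdh18 probe set (-0.92, limma, adjusted p = 0.000287), the second of Cdh13 (-0.75, adjusted p = 0.0088), Pcdhb7 (-0.34, adjusted p = 0.0224) and Pcdh1 (-0.24, adjusted p = 0.0335) passed there.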
